A study of Homo sapiens with 18 samples.

Results

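The HOXB cluster is a row of homeobox genes on human chromosome 17, and 9 of its genes, HOXB2 to HOXB9 and HOXB13, were examined in liver cancer cells with and without the DNAJB1-PRKACA fusion. These 9 genes were chosen by symbol from the 14765 genes listed in both of the authors' deposited tables, with their values in those tables known. Their differences from HepG2 are therefore given as a description, with no test. GENCODE 29 annotates 10 protein-coding HOXB genes on GRCh38. The tenth, HOXB1, was listed in neither table.

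Poly-A RNA of 18 libraries was sequenced, 6 from each of 3 lines. HepG2, an established hepatoblastoma line labelled as wild type, was the control, and H33 and H12 are labelled as clones of HepG2 that carry the fusion. The fusion joins DNAJB1, a heat shock co-chaperone gene, to PRKACA, which encodes the catalytic subunit of protein kinase A, and it defines fibrolamellar liver carcinoma. The labels name no treatment and give 1 growth medium, RPMI1640 with serum. Each clone stands for a single derived line, so a difference from HepG2 covers everything in which that line differs, and the labels call the 6 samples of a line biological replicates without naming separate cultures. The p-values then measure only the spread between these samples, which may be technical.

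HOX genes encode transcription factors that bind DNA through a homeodomain and give cells their position along the body axis. In vertebrates they lie in the HOXA, HOXB, HOXC and HOXD clusters, and genes with the same number in different clusters are paralogs. Within a cluster the low numbers are used towards the head and the high numbers towards the tail, which is called collinearity. Polycomb proteins keep the clusters silent, Trithorax proteins and retinoic acid open them, and TALE homeodomain proteins of the PBX and MEIS families bind DNA together with HOX proteins.

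Values were statistics per gene for each clone against HepG2, so library depth and the spread between libraries are unknown. A fold change is a log2 ratio of clone over HepG2, and its standard error (SE) was worked out from that change and the deposited likelihood ratio. Where HepG2 or a clone had hardly any reads, this SE can understate the uncertainty. Group levels, as read counts scaled to library size (CPM), were implied from the deposited mean level and fold change. Levels under 0.00781 CPM are called the floor, since fitted fold changes there depend on the prior count. In the authors' deposited tables PRKACA stood at 2.15 (SE 0.03) for H33 and 2.07 (SE 0.14) for H12, and DNAJB1 stood at -0.20 (SE 0.04) and -0.25 (SE 0.13). All 12 hepatocyte markers examined were lower in both clones at an adjusted p under 0.05 in the authors' deposited tables. Over all listed genes 45.3% were lower in that way in H33 and 44.3% in H12. The median of the 12 markers was -8.75 in H33 and -5.95 in H12. Their summed implied level was 61288 CPM in HepG2, 111 CPM in H33 and 978 CPM in H12. The largest of these changes were those of AFP (-16.75 and -5.94), AHSG (-12.04 and -6.14), APOB (-11.12 and -6.20) and ALB (-9.90 and -5.92) in the authors' deposited tables, so defining markers of the labelled cell type were low in both clones. Of 8 fibroblast markers 4 were listed, with COL1A2 at 8.54 in H33 and 8.25 in H12, COL3A1 at 6.40 and 5.0, COL1A1 at 0.80 and 0.41 (not past the threshold in H12) and PDGFRB at -4.79 and -4.93. Their summed implied level went from 10.3 CPM in HepG2 to 1445 CPM in H33 and 1193 CPM in H12, nearly all of it COL1A2. Of 5 endothelial markers 1 was listed, CDH5, at -1.65 and -1.94. Of 6 leukocyte markers 4 were listed, with CD68 at 1.47 and 1.07, CD14 at -0.68 and -1.19 and LYZ at -9.71 and -5.94 among them. Of 5 cholangiocyte markers 3 were listed in H33 and 2 in H12. AQP1, listed for H33 only and named after its value was seen, stood at 5.39, KRT19 at 2.36 and 2.27 and SOX9 at -2.0 and -1.65 in the authors' deposited tables. In bulk RNA, fewer cells of a type and less RNA per cell cannot be told apart, and the part of these marker changes in the HOXB values was not tested.

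All 9 HOXB genes were far higher in both clones than in HepG2, where each was close to silent. Their log2 fold changes ran from 6.80 to 9.66 in the authors' deposited table for H33 and from 6.77 to 9.73 in that for H12, with medians of 8.37 and 8.39, against -0.02 and -0.03 over all listed genes. Implied HepG2 levels lay between 0.0132 and 0.369 CPM, and implied clone levels between 4.95 and 120 CPM in H33 and between 5.39 and 116 CPM in H12. All 9 were past an adjusted p of 0.05 on the higher side in each deposited table of the authors, beside 44.2% of all listed genes in H33 and 41.8% in H12. All 9 also had a log2 fold change of at least 1, beside 21.4% and 20.7% of all listed genes higher by that much. Past the threshold in either direction were 89.6% of listed genes in H33 and 86.0% in H12. Nothing is read from these counts, since the genes were chosen with these values known. For 8 of the 9 the implied HepG2 level was below the lowest mean level of any listed gene, which was 0.323 CPM in the H33 table and 0.314 CPM in the H12 table. Those 8 genes were thus listed through their levels in the clones. HOXB1 has no value, so the cluster as a whole cannot be counted as higher.

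**Figure D1:**
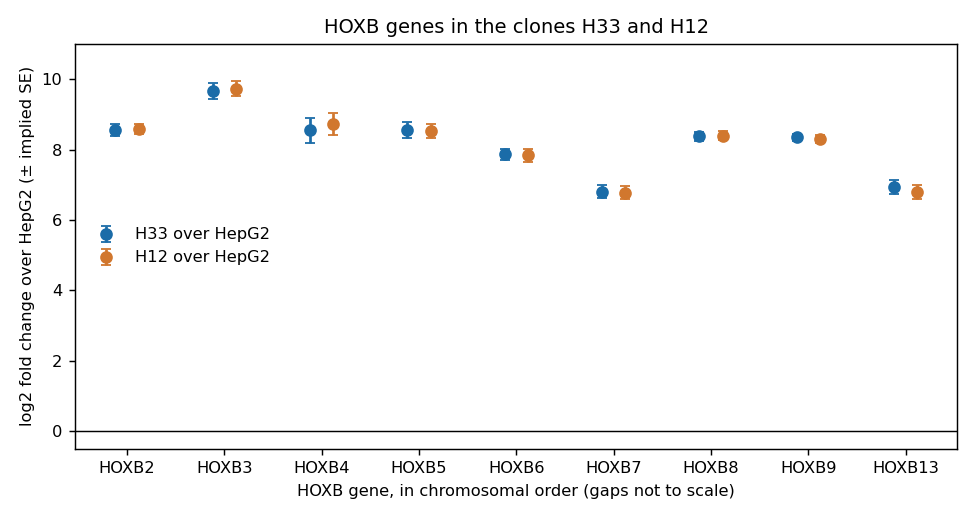
Log2 fold change of each HOXB gene over HepG2 (y axis) in H33 (blue) and H12 (orange), in chromosomal order (x axis), with bars for the implied standard error. All points lie between 6.77 and 9.73, and the points of the clones overlap within their bars for every gene.

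HOXB2, HOXB3 and HOXB4 form the head-ward end of the measured cluster. HOXB2 (ENSG00000173917, GRCh38 chromosome 17 from 48540894 to 48544989, minus strand), which helps set hindbrain segment identity, had implied levels of 0.0649 CPM in HepG2, 24.5 CPM in H33 and 24.5 CPM in H12. Its log2 fold change was 8.56 (SE 0.16) and 8.58 (SE 0.15) in the authors' deposited tables for H33 and H12. HOXB3 (chromosome 17 from 48548870 to 48604912), another hindbrain patterning gene, went from 0.0204 CPM in HepG2 to 16.4 CPM in H33 and 16.8 CPM in H12. With 9.66 (SE 0.23) and 9.73 (SE 0.21) it had the highest fold change of the 9 in both of the authors' deposited tables, at rank 17 of 14888 genes in H33 and 16 of 14896 in H12. HOXB4 (chromosome 17 from 48575513 to 48580111), known for expanding blood stem cells when overexpressed, had 0.0132 CPM in HepG2, 4.95 CPM in H33 and 5.39 CPM in H12. Its fold changes in the authors' deposited tables were 8.55 (SE 0.36) and 8.72 (SE 0.31). These are the widest errors among the 9 genes, and its HepG2 level was the nearest of the 9 to the floor. The HepG2 level of HOXB3 was the next nearest, so the size and rank of the HOXB3 fold change are uncertain.

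HOXB5 to HOXB8 are the central genes. HOXB5 (chromosome 17 from 48591257 to 48593961), which marks long-lived blood stem cells in mouse, had 0.0356 CPM in HepG2, 13.5 CPM in H33 and 12.8 CPM in H12. Its fold changes were 8.56 (SE 0.23) and 8.53 (SE 0.20) in the authors' deposited tables. HOXB6 (chromosome 17 from 48595751 to 48604992) stood at 0.0948 CPM in HepG2, 22.1 CPM in H33 and 21.2 CPM in H12, with fold changes of 7.86 (SE 0.16) and 7.83 (SE 0.17) in the authors' deposited tables. Both genes were thus at moderate levels in the clones and near absent in HepG2. HOXB7 (chromosome 17 from 48607227 to 48633572), often overexpressed in breast tumours, went from 0.104 CPM to 11.6 CPM in H33 and 11.1 CPM in H12. Its fold changes of 6.80 (SE 0.18) and 6.77 (SE 0.19) were the lowest of the 9 in both of the authors' deposited tables. HOXB8 (chromosome 17 from 48611377 to 48614939), whose forced expression holds mouse myeloid progenitors undifferentiated, reached 55.4 CPM in H33 and 55.3 CPM in H12 from 0.167 CPM in HepG2. HOXB8 lies next to HOXB7, yet its fold changes were larger, at 8.37 (SE 0.12) and 8.39 (SE 0.13) in the authors' deposited tables.

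HOXB9 and HOXB13 form the tail-ward end. HOXB9 (chromosome 17 from 48621159 to 48626356), which patterns the ribs in mouse, had 0.369 CPM in HepG2, 120 CPM in H33 and 116 CPM in H12. Its fold changes of 8.35 (SE 0.09) and 8.30 (SE 0.11) in the authors' deposited tables carried the smallest errors of the 9. HOXB13 (chromosome 17 from 48724763 to 48729178), a regulator of prostate and hindgut identity that binds DNA with the androgen receptor in prostate, lies 98406 bases beyond HOXB9. It had 0.0963 CPM in HepG2, 11.9 CPM in H33 and 10.6 CPM in H12, with fold changes of 6.94 (SE 0.20) and 6.81 (SE 0.20) in the authors' deposited tables. Fold change did not follow gene order: the lowest values were those of HOXB7, inside the cluster, and of HOXB13, at its end.

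Levels of different genes were compared per kilobase of annotated exon. On that scale the order in H33 was HOXB9 (46.5 CPM per kb), HOXB8 (27), HOXB2 (10.5), HOXB6 (8.47), HOXB7 (7.58), HOXB5 (6.61), HOXB13 (3.42), HOXB3 (2.2) and HOXB4 (1.32). The order in H12 was the same, from 44.8 CPM per kb for HOXB9 to 1.44 for HOXB4. In HepG2 the levels were also highest for HOXB9 (0.143 CPM per kb) and HOXB8 (0.0814) and lowest for HOXB4 (0.00353) and HOXB3 (0.00273). The spread between libraries is unknown, so it cannot be said which neighbours in this order differ beyond it. With the median annotated transcript length in place of the merged exon length, HOXB8 stood above HOXB9 in both clones.

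**Figure D2:**
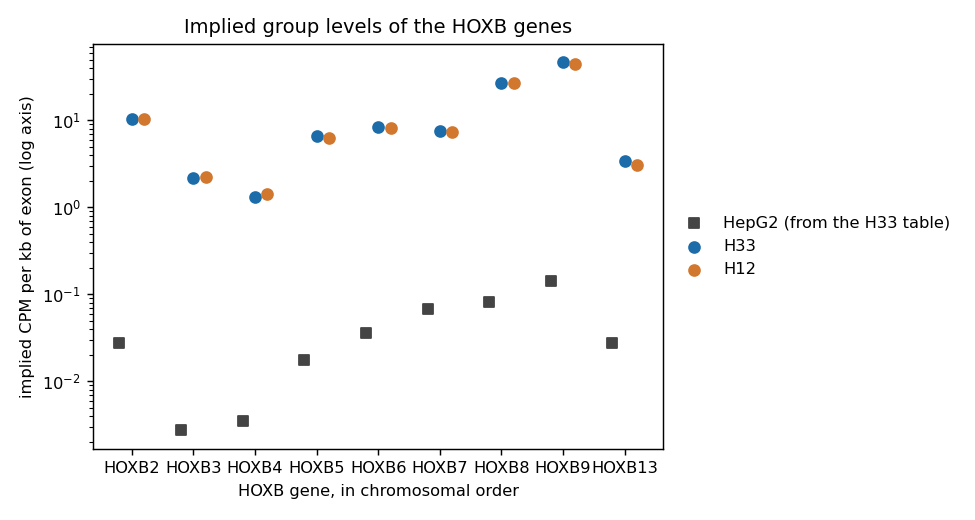
Implied level of each HOXB gene in CPM per kilobase of exon (y axis, log scale) in HepG2 (squares), H33 and H12 (circles), in chromosomal order (x axis). The HepG2 values lie at or under 0.143 and the clone values at or above 1.32.

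H33 and H12 gave nearly the same values. The difference between their fold changes (H33 minus H12) lay between -0.17 for HOXB4 and 0.14 for HOXB13. None of the 9 was past an adjusted p of 0.05 in the normal test of that difference, and none had an unadjusted p under 0.05, beside 5.40% of the 14765 shared genes past the threshold. Nothing is read from this count either, since the values of both clones were known when the genes were chosen. The 95% intervals of the differences reached from -1.10 to 0.76, both bounds those of HOXB4, and for HOXB9, the best measured gene, from -0.22 to 0.32. Both comparisons share the HepG2 libraries. These intervals treat the errors as independent.

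The annotation of the cluster is dense, and reads of overlapping exons can be shared between genes. Exons of HOXB4 and HOXB6 overlapped those of other genes on the same strand over 17.1% and 16.6% of their length, and those of HOXB3 over 7.94%. HOXB6 also overlapped antisense exons over 16.3% of its length, and the use of strand in the counting is not given in the sources used here. HOXB7, HOXB8, HOXB9 and HOXB13 had no exon overlap. The fold changes of these 4 ran from 6.80 to 8.37 in H33 and from 6.77 to 8.39 in H12 in the authors' deposited tables. The part of shared reads in the values of the other 5 was not tested.

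The listed noncoding genes inside the cluster were higher in the clones as well, at low levels. Their implied HepG2 levels lay below the lowest mean level of any listed gene, 0.323 CPM for H33 and 0.314 CPM for H12. They were thus listed through their levels in the clones, so nothing is read from their direction. Of 12 antisense, microRNA and small genes of the cluster that were looked for, HOXB1 among them, 1 was listed in H33 and 2 in H12. HOXB-AS1, an antisense RNA that starts inside the HOXB2 interval in GENCODE 29, lay at the fitted floor in HepG2 and at an implied 2.04 CPM in H33 and 1.95 CPM in H12. HOXB-AS2, listed only in the authors' deposited table for H12, lay at the floor in HepG2 and at 0.729 CPM in H12. No fold is given for genes at the floor, since their fitted fold change depends on the prior count. HOXB-AS3, HOXB-AS4, PRAC1, PRAC2 and the microRNA genes MIR10A and MIR196A1 were not listed. Of the 27 annotated genes in the span from HOXB1 to HOXB13, 12 were listed in both tables, and all 12 were past the threshold as higher, beside 44.2% of all listed genes in H33 and 41.8% in H12. Nothing is read from that count, since 9 of the 12 were chosen with these values known. Besides the 9 HOXB genes and HOXB-AS1 these were the lincRNA genes AC103702.2 and LINC02086 between HOXB9 and HOXB13, named after their values were seen. AC103702.2 went from the floor to 1.70 CPM in H33 and 1.79 CPM in H12. LINC02086 went from 0.0482 CPM in HepG2 to 1.39 CPM in H33 and 1.28 CPM in H12, with fold changes of 4.85 (SE 0.39) and 4.71 (SE 0.36) in the authors' deposited tables.

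The start regions of 4 cluster genes outside the 9 are shown: HOXB-AS1 and HOXB-AS2 as the listed antisense genes, and HOXB1 and HOXB-AS4 as the unlisted genes with a motif match. The sequence tables held no such region for the 9 HOXB genes. Each is 300 bases of RefSeq sequence on GRCh38.p14, 5′ to 3′ on the gene's own strand, around the gene start that RefSeq gives and mostly upstream of it: chr17:48530962-48531261 (minus strand) for HOXB1, chr17:48544101-48544400 (plus strand) for HOXB-AS1, chr17:48555907-48556206 (plus strand) for HOXB-AS2 and chr17:48628448-48628747 (plus strand) for HOXB-AS4. GENCODE 29 places these starts elsewhere for a pair of them: its HOXB-AS1 gene begins at 48543551, before the window, and its HOXB-AS2 gene at 48557262, after it. Capitals mark matches on either strand to TGATNNAT, the form of site that HOX and PBX proteins bind together, or to TTTATNG, the form bound by CDX proteins.
HOXB1: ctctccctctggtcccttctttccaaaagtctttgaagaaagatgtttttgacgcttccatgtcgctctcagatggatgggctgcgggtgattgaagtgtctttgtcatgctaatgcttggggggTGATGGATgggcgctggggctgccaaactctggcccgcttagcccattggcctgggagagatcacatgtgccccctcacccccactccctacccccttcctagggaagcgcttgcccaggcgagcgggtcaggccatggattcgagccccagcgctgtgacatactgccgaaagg
HOXB-AS1: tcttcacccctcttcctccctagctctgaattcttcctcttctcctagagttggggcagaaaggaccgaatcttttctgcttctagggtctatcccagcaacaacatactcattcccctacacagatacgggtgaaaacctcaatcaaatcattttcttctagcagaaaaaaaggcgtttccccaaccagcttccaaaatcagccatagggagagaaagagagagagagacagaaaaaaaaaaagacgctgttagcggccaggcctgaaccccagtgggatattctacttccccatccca
HOXB-AS2: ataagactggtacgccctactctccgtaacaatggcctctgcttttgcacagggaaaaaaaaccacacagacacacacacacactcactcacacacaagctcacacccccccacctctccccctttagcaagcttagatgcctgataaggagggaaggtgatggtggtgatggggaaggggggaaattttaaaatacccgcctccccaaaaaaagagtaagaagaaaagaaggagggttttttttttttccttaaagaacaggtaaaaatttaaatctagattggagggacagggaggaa
HOXB-AS4: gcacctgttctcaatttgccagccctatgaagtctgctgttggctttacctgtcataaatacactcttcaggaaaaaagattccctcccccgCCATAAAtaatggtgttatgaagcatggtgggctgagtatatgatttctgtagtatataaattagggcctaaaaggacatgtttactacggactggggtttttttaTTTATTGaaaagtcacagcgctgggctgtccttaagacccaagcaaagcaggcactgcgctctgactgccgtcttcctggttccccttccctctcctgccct

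The window of HOXB1, the unlisted gene, held 1 match to TGATNNAT, and 7.40% of 35116 promoter windows of this length hold at least 1. A site of this form upstream of mouse Hoxb1 is known as the element through which Hoxb1 maintains its own expression. The window of HOXB-AS4, also not listed, held 2 matches to TTTATNG, and none of the matches overlap. At least 1 match to TTTATNG is in 9.73% of all windows, and the share with 2 was not worked out. A second HOXB-AS4 window (chr17:48629271-48629570) and the window of the unlisted HOXB-AS3 (chr17:48595708-48596007) held no match to any motif searched, so unlisted genes included windows without matches. The windows of HOXB-AS1 and HOXB-AS2, the listed antisense genes, held neither motif. The direct-repeat motif of the retinoic acid receptor with a 5-base spacer, also searched on both strands, was in 2 of all windows and in none of these 4. The share of G and C was 58.0% for HOXB1, 46.7% for HOXB-AS1, 45.3% for HOXB-AS2 and 46.0% for HOXB-AS4, against a median of 58.7% over all windows. A match describes letters only, and these windows do not cover the start sites of the 9 HOXB genes.

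Listed genes on either side of the cluster had small and large fold changes. Within 500 kb beyond the ends, 5 genes were listed on the HOXB1 side, and 4 of the 5 had an absolute log2 fold change under 1 in each of the authors' deposited tables. The nearest, the antisense gene SKAP1-AS2, 219764 bases from HOXB1, was the exception. It went from the floor in HepG2 to 3.82 CPM in H33 and 3.3 CPM in H12. Next were SNX11, a sorting nexin gene, at 0.24 (SE 0.05) and 0.19 (SE 0.06), and CBX1, a heterochromatin protein gene, at 0.68 (SE 0.03) and 0.72 (SE 0.11) in the authors' deposited tables for H33 and H12. Beyond HOXB13 the nearest listed gene was TTLL6, a tubulin glutamylase gene, 33057 bases away, at 2.64 (SE 0.34) and 2.97 (SE 0.31) in the authors' deposited tables. CALCOCO2, an autophagy receptor gene, followed at 0.45 (SE 0.04) and 0.43 (SE 0.07), and the pseudogene SUMO2P17, listed only for H12, at 2.82 (SE 0.33). On that side 4 of 6 genes listed in H33, and 4 of 7 in H12, stayed under 1. The farthest, at 268234 bases, was IGF2BP1, a fetal RNA-binding protein gene named after its value was seen, which fell, at -9.96 (SE 0.07) for H33 and -5.89 (SE 1.19) for H12 in the authors' deposited tables. The share of all listed genes under 1 was not worked out, so nothing is read from these neighbour counts. In H33 every listed neighbour on both sides was past the threshold, beside 89.6% of all listed genes.

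**Figure D3:**
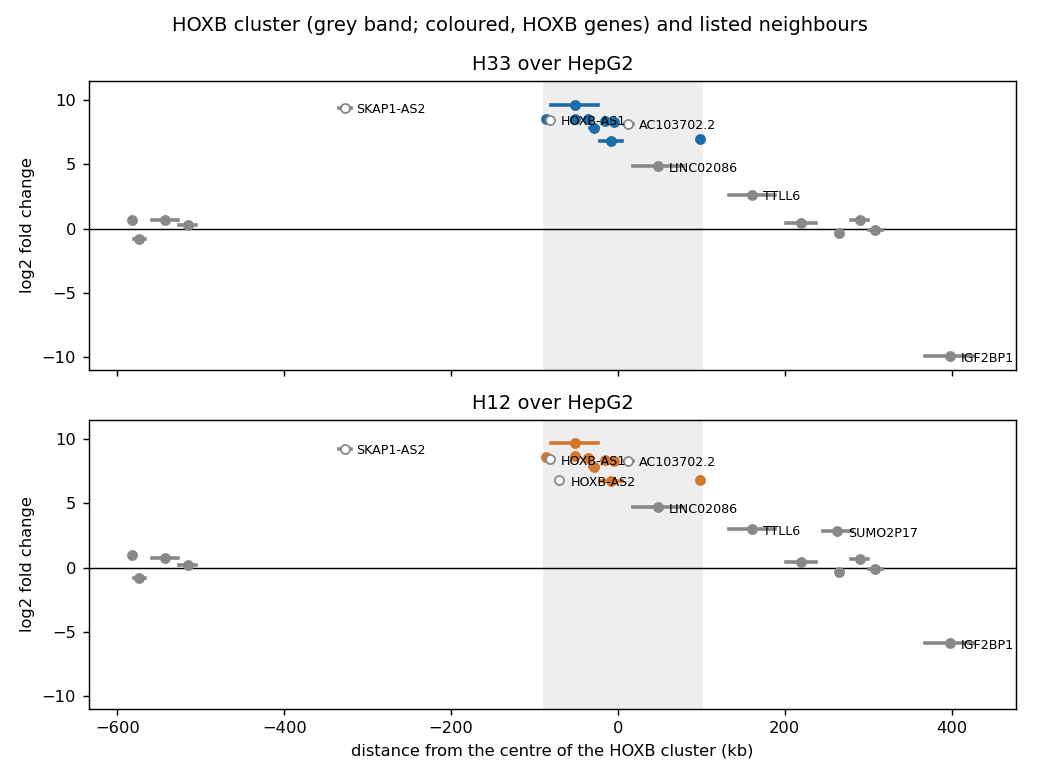
Log2 fold change over HepG2 (y axis) of listed genes within 500 kb of the HOXB cluster, by distance from the cluster centre in kb (x axis), in H33 (top) and H12 (bottom). Bars span each gene, coloured points are the 9 HOXB genes, grey points other genes, and open points genes at the fitted floor in HepG2. The HOXB genes stand between 6.77 and 9.73, and CBX1, SNX11 and CALCOCO2 lie under 1. The nearest listed gene at each end also rose: SKAP1-AS2, from the floor, and TTLL6, at 2.64 in H33 and 2.97 in H12. SUMO2P17 stands at 2.82 in H12, and IGF2BP1 lies at -9.96 in H33 and -5.89 in H12.

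Genes of the HOXA, HOXC and HOXD clusters were listed less fully and did not move in a single direction. Of 29 such HOX genes 10 were listed in both tables. In the authors' deposited table for H33 6 rose, 3 fell and 1 did not pass the threshold. Rises made up 44.2% of every gene listed for H33, and falls 45.3%. In that for H12 7 rose and 3 fell, against shares of 41.8% for rises and 44.3% for falls. Whether the counts of these 10 genes depart from those shares was not tested. The medians of the 10 genes were 2.47 in H33 and 2.60 in H12. The genes that fell belong to the head-ward HOXA genes and to HOXD. HOXA4, the HOXA paralog of HOXB4, fell from 3.96 CPM in HepG2 to 0.0368 CPM in H33 and 0.0811 CPM in H12, with fold changes of -6.75 (SE 0.25) and -5.63 (SE 0.22) in the authors' deposited tables. HOXA5 fell, at -5.88 (SE 0.37) and -5.31 (SE 0.34), and HOXD1, a low-number paralog of the unlisted HOXB1, at -8.0 (SE 0.39) and -7.04 (SE 0.35) in the authors' deposited tables.

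The paralogs of HOXB4 and HOXB5 thus moved opposite to the HOXB genes of the same number. HOXA3 stayed near its HepG2 level of 4.60 CPM, at 4.85 CPM in H33 and 5.46 CPM in H12, with fold changes of 0.08 (SE 0.10, not past the threshold) and 0.24 (SE 0.11, past it) in the authors' deposited tables. Its paralog HOXB3 had the highest fold change of the 9. HOXA2 (2.34 and 2.64) rose more modestly than HOXB2 in the authors' deposited tables. At the tail-ward end HOXA11 (5.26, SE 0.33, and 5.29, SE 0.37) and HOXA13 (4.71, SE 0.28, and 4.66, SE 0.29) rose, the latter together with its paralog HOXB13 in the authors' deposited tables. HOXC6 and HOXC8, paralogs of HOXB6 and HOXB8, rose too. HOXC6 stood at 7.56 (SE 0.41) in H33 beside 7.51 (SE 0.37) in H12, and HOXC8 at 6.02 (SE 0.26) beside 5.87 (SE 0.27), in the authors' deposited tables. HOXC6 was at 2.60 CPM in H33 and HOXC8 at 3.44 CPM. In HepG2 HOXC6 lay at 0.0138 CPM, near the floor, so the size of its fold change is uncertain. HOXC6 had the highest fold change among these 10 genes, and 7 of the 9 HOXB genes stood above it in each clone.

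**Figure D4:**
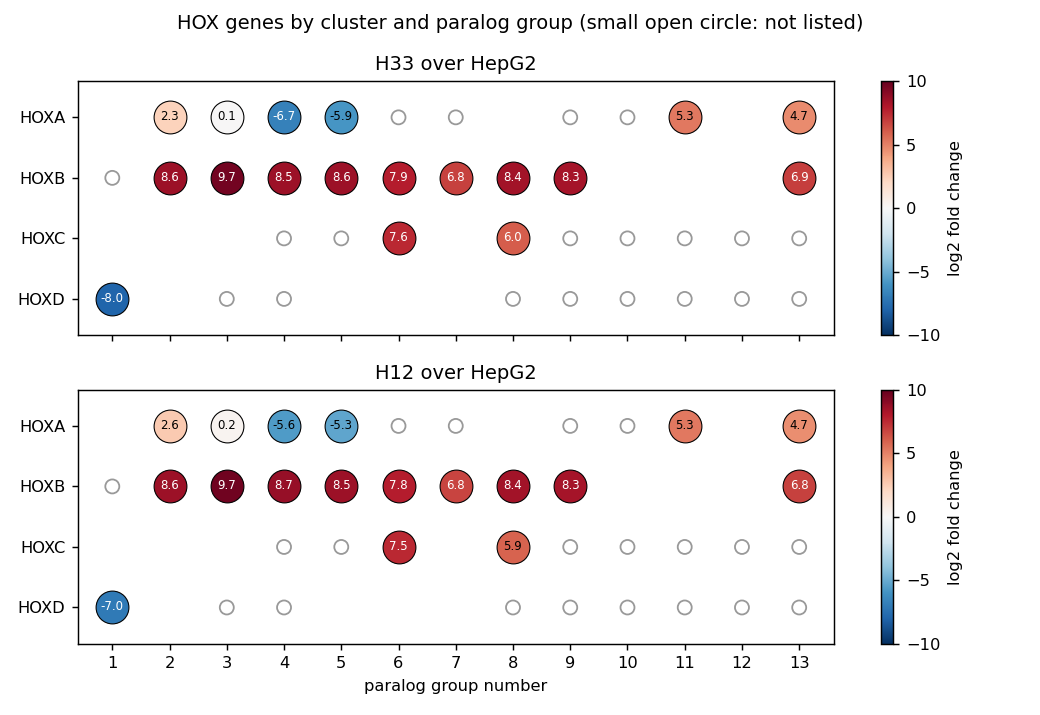
Log2 fold change over HepG2 (colour and number) of HOX genes by cluster (rows) and paralog group number (x axis) in H33 (top) and H12 (bottom); small open circles are genes that were not listed. HOXB2 to HOXB9 and HOXB13 are all at or above 6.77, whereas HOXA holds both rises and falls and HOXD1 is lower.

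Of 15 noncoding genes of the other HOX clusters 4 were listed in both tables, 2 higher and 2 lower in each. Called in either direction were 89.6% of all listed genes in H33 and 86.0% in H12. HOTAIRM1, a HOXA cluster RNA that responds to retinoic acid in myeloid cells, rose by 2.31 (SE 0.20) and 2.37 (SE 0.21) in the authors' deposited tables. HOXA11-AS rose with HOXA11, by 6.45 (SE 0.49) and 6.12 (SE 0.52). HOXA-AS2, beside HOXA3, was lower at -0.57 (SE 0.13) and -0.62 (SE 0.10) in the authors' deposited tables. HAGLR, an RNA that starts beside HOXD1, fell with it, from 34.0 CPM in HepG2 to 0.0929 CPM in H33 and 0.524 CPM in H12, with fold changes of -8.51 (SE 0.13) and -6.05 (SE 0.65) in the authors' deposited tables. In H12 many genes nearly absent from H33 stood close to a common value. The 160 genes under -9 in H33 with at least 10 CPM in HepG2 had a median of -5.93 (SD 0.20) in H12, a value near those of HAGLR, HOXA4, IGF2BP1, MEIS1 and KDM6A. The 12 hepatocyte markers lay near it too, from -6.20 to -5.67 in H12. The part of this in their H12 fold changes was not tested, and the HOXB genes, which were higher in the clones, do not lie in that range.

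Of 11 TALE cofactor genes 9 were listed in H33, 5 higher and 4 lower, and 10 in H12, 4 higher and 4 lower. Over all listed genes 89.6% were called in either direction in H33 and 86.0% in H12, and the counts of the lists that follow are read against these shares. MEIS1, a partner of HOX proteins in blood and limb, fell from 3.54 CPM in HepG2 to the floor in H33 and to 0.0636 CPM in H12, where its fold change was -5.82 (SE 0.28) in the authors' deposited table. MEIS2 fell, at -1.51 (SE 0.08) and -2.37 (SE 0.09), whereas MEIS3 rose by 5.95 (SE 0.17) and 5.66 (SE 0.16), to 17.1 CPM in H33 and 13.8 CPM in H12. PBX4 rose by 5.18 (SE 0.51) and 5.19 (SE 0.48) in the authors' deposited tables but reached only 0.896 CPM and 0.899 CPM. The median of the listed TALE genes was 0.10 in H33 and 0.02 in H12. Of 6 CDX and ParaHox genes only CDX2 was listed. CDX2, an intestinal factor that activates HOX genes during axis formation in mouse, went from 0.0216 CPM in HepG2 to 2.77 CPM in H33 and 2.56 CPM in H12, with fold changes of 7.0 (SE 0.34) and 6.89 (SE 0.33) in the authors' deposited tables.

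Of 20 retinoic acid pathway genes 13 were listed in each table, 6 higher and 6 lower in H33 and 6 higher and 5 lower in H12. Beside this stood 44.2% of all genes higher and 45.3% lower for H33, with 41.8% higher and 44.3% lower for H12. ALDH1A3, which makes retinoic acid from retinal, rose by 7.84 (SE 0.07) and 8.0 (SE 0.15), and the retinol uptake receptor gene STRA6 by 7.35 (SE 0.16) and 7.23 (SE 0.17) in the authors' deposited tables. The receptor gene RARG rose by 4.12 (SE 0.09) and 4.06 (SE 0.11) in the authors' deposited tables. The list also held falls, such as that of RDH10, named after its value was seen. It stood at -2.81 (SE 0.06) in H33 and -2.91 (SE 0.17) in H12 in the authors' deposited tables. The median of the list was -0.05 in H33 and 0.05 in H12, so the large rises were not shared by the list as a whole.

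All 29 Polycomb genes examined were listed, 15 higher and 11 lower in H33 and 15 higher and 13 lower in H12, with medians of 0.13 and 0.10. The called share in H33 was thus near the 89.6% of all listed genes. In H12 28 of the 29 were called, beside 86.0% of all listed genes, and whether these shares differ was not tested. The largest changes were in subunits of the first Polycomb complex. PCGF5 fell, at -5.30 (SE 0.05) and -4.0 (SE 0.30) and BMI1 fell, at -3.3 (SE 0.06) and -3.36 (SE 0.23), while the chromodomain genes CBX6 rose by 2.99 (SE 0.07) and 2.83 (SE 0.08) and CBX7 by 2.46 (SE 0.07) and 2.13 (SE 0.09) in the authors' deposited tables. Of 16 Trithorax and histone demethylase genes, H33 had 11 higher and 4 lower, H12 had 11 higher and 5 lower, with medians of 0.51 and 0.55, beside the same shares of all genes. KDM6A, a demethylase that removes the Polycomb mark, fell from 25.2 CPM in HepG2 to 0.0927 CPM in H33 and 0.436 CPM in H12, with fold changes of -8.09 (SE 0.14) and -5.89 (SE 0.67) in the authors' deposited tables. DOT1L fell, at -1.81 (SE 0.07) and -1.74 (SE 0.07), and ASH1L (1.27 and 1.33) and PSIP1 (1.17 and 1.22) rose in the authors' deposited tables. Of 10 CTCF and cohesin genes, which shape chromatin loops, H33 had 5 higher and 3 lower and H12 had 4 higher and 2 lower, beside 89.6% and 86.0% of all listed genes called. The cohesin subunit gene STAG2 rose the most, by 1.49 (SE 0.04) and 1.54 (SE 0.14), ahead of STAG1 (0.92 and 0.91) and WAPL (0.44 and 0.52), and SMC1A fell (-0.41 and -0.40) in the authors' deposited tables.

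**Figure D5:**
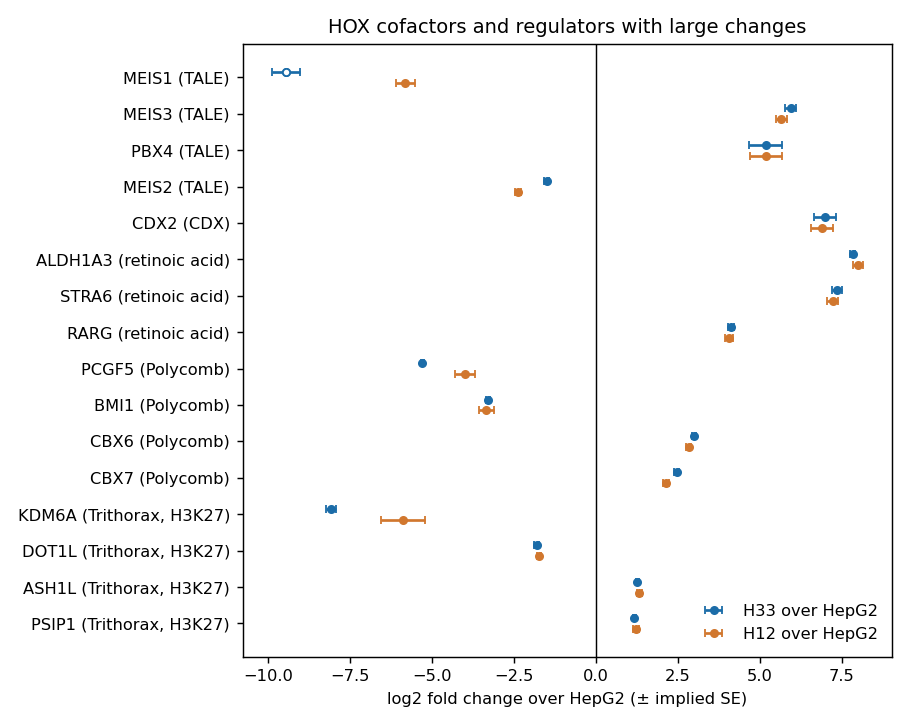
Log2 fold change over HepG2 (x axis) with implied standard errors for HOX cofactors and regulators with large mean absolute changes in their lists (rows), in H33 (blue) and H12 (orange). The open point marks MEIS1 in H33, which lay at the fitted floor; MEIS3, CDX2, ALDH1A3, STRA6 and RARG lie on the higher side and MEIS1, PCGF5, BMI1 and KDM6A on the lower side.

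The genes most like the HOXB genes were sought by the distance between their pair of log2 fold changes and the HOXB median pair of 8.37 and 8.39, over 2 comparisons and 13030 genes. The nearest were HENMT1, which encodes a small RNA methyltransferase (8.34 and 8.37), the antisense gene TLR8-AS1 (8.41 and 8.34) and LRRC34 (8.33 and 8.33) in the authors' deposited tables. Their distances were 0.04, 0.06 and 0.08. Likeness over 2 values that share controls is weak: 289 genes lay nearer to the median pair than the farthest of the 9 HOXB genes, at a distance of 2.26. HENMT1 lies on chromosome 1, LRRC34 on chromosome 3 and TLR8-AS1 on chromosome X, so none is near the HOXB cluster.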

How the data were processed

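Poly-A RNA of 6 libraries each of HepG2, H33 and H12 was sequenced, and samples were grouped by the cell line labels. Per the submitters' processing notes, bcl2fastq 2.20.0.422, STAR 2.5.3a, RSEM, edgeR 3.28.0 and GRCh38.p10 were used; the sources used here do not give their roles, the annotation, the filter on low counts or the use of strand. Per the file headers, the authors' deposited tables (14888 genes for H33, 14896 for H12) hold a log2 fold change, a mean log2 CPM, a likelihood ratio score, a p-value and an adjusted p-value per gene. No values per library were used, so depth is unknown and the count tests planned for counts were not run.

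The SE was the absolute log2 fold change over the root of the likelihood ratio. Group levels were implied from mean CPM and fold change with groups of equal size. Levels under 0.00781 CPM were called the floor. Calls were the authors' at an adjusted p of 0.05. H33 and H12 were compared by the difference of fold changes over the root of the summed squared SEs (normal tail, two-sided, Benjamini-Hochberg over 14765 genes). Shared controls and SEs near the floor limit this comparison. It was run on simulated data with independent normal errors of the same SEs, which cannot show how it holds under those limits. Coordinates and exon lengths come from GENCODE 29 on GRCh38, in which 100% of identifiers were found, and promoter windows from RefSeq. Genes and lists were chosen with earlier results of these data known. Named were the 9 HOXB genes, listed other HOX genes and HOX noncoding genes, up to 4 called genes with the largest mean absolute change of each further list, the 3 nearest listed neighbours at each end and the 3 genes nearest in pattern. Results for 3 genes that this rule covers are not reported here; they stay in the counts and medians of their lists. Alternatives were an adjusted p of 0.01, an absolute change of at least 1, genes with a mean log2 CPM of at least 0, median-centred fold changes and, chosen after seeing the data, other transcript lengths. Computation used Python 3.11.15 with pandas 2.3.3, numpy 2.4.6 and scipy 1.17.1, and figures matplotlib 3.10.9.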

Additional observations from a re-analysis of the deposited data

Results flagged for a closer look

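None of the 9 HOXB genes differed between the clones past the threshold. Among the other genes named, 12 had fold changes that differed between H33 and H12 (normal test of the difference, Benjamini-Hochberg adjusted over all shared genes), given as H33 minus H12. Of all 14765 shared genes 5.40% differed. Many of the named genes were picked for large changes in these same data, so nothing is read from the count of 12. The HOX gene HOXA4 differed by -1.12 (SE 0.34, adjusted p = 0.0191). The HOXD noncoding gene HAGLR differed by -2.46 (SE 0.66, adjusted p = 0.00565). Among TALE genes, MEIS2 differed by 0.86 (SE 0.12, adjusted p = 2.96e-11) and MEIS1 by -3.64 (SE 0.51, adjusted p = 2.59e-10), with MEIS1 in H33 at the floor, so that this size depends on the prior count. PCGF5 differed by -1.30 (SE 0.30, adjusted p = 0.000648) and KDM6A by -2.20 (SE 0.69, adjusted p = 0.0287). The neighbour IGF2BP1 differed by -4.08 (SE 1.19, adjusted p = 0.0155). Among hepatocyte markers AFP differed by -10.81 (SE 1.48, adjusted p = 4.87e-11), AHSG by -5.90 (SE 1.54, adjusted p = 0.00395) and APOB by -4.92 (SE 1.58, adjusted p = 0.0360). The leukocyte marker CD68 differed by 0.40 (SE 0.10, adjusted p = 0.00241) and the fibroblast marker COL3A1 by 1.40 (SE 0.46, adjusted p = 0.0466). MEIS2, CD68 and COL3A1 were higher in H33 than in H12 and the other 9 lower. The H12 fold changes of AFP, AHSG, APOB, IGF2BP1, KDM6A, HAGLR, HOXA4 and MEIS1 lay near -5.93. That was the H12 median of the 160 genes under -9 in H33 with at least 10 CPM in HepG2. The part of this common H12 value in these differences was not tested. Implied H33 levels were also low for HOXA4 (0.0368 CPM), AFP (0.0372 CPM), HAGLR (0.0929 CPM) and KDM6A (0.0927 CPM). At such levels the SE can understate the uncertainty of the difference.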

How the results depend on the processing

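All 9 HOXB genes stayed past the threshold as higher in both clones at an adjusted p of 0.01, with an absolute change of at least 1 and among genes with a mean log2 CPM of at least 0, and none of the 9 passed for the difference between the clones under these alternatives. Centring on the median of all genes moved each HOXB fold change by less than its SE. Requiring an absolute change of at least 1 lowered the called TALE genes in H33 from 9 to 5, Polycomb genes from 26 to 10 in H33 and from 28 to 10 in H12, Trithorax genes from 15 to 4 and from 16 to 4, and CTCF and cohesin genes from 8 to 1 and from 6 to 1, as that requirement leaves out small changes. Among HOXB genes ranked per kilobase, HOXB9 was at rank 2 with the median transcript length and at rank 1 with the longest transcript, in both clones. No paired analysis was possible because the replicate numbers belong to libraries for which no values were used. For the same reason the alternatives planned for counts per library (a second count model, no filter on low counts, the replicate number as a block) were not run. Depth is unknown, so how far HepG2 levels near the floor can be resolved was not settled.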
